A study of Mus musculus with 28 samples.

Results

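Genes of the phagocyte NADPH oxidase and of antioxidant defence were followed in retinal microglia before, during and after an acute inflammation. The set comprised 9 of the 40021 genes listed, taken by symbol: Cybb, Cyba, Ncf1, Ncf4 and Rac2 for the oxidase, and Hmox1, Sod2, Txnrd1 and Prdx1 for antioxidant defence. All 9 passed the filter on low values, which kept the 13164 genes that reached an RPKM of 1 in 5 or more of the 28 retinas. RPKM is a read number scaled to transcript length and to the total reads of a library, so that levels of different genes can be set side by side. Microglia were sorted on their fluorescence from single retinas of male heterozygous Cx3cr1CreER:R26-tdTomato mice (C57BL/6), and the mRNA of each retina was amplified and sequenced. In this strain a Cre recombinase under control of Cx3cr1, the fractalkine receptor gene, is activated by tamoxifen, given topically to the eye at 4 to 5 weeks of age, and switches on tdTomato, and all groups carried these alleles. The study describes some recombination without tamoxifen in this strain, so tagging was not limited to the time of tamoxifen. Naïve retinas (n = 10) were compared with retinas at 4 h (n = 6), 18 h (n = 5) and 2 weeks (n = 7) of endotoxin-induced uveitis (EIU). EIU is an inflammation that an injection of lipopolysaccharide (LPS) into the vitreous sets off, and it was begun 4 weeks after tamoxifen. No group was injected without LPS, so effects of LPS and of the injection itself cannot be told apart. The retinas belonged to 2 experiments, with 6, 3, 4 and 4 retinas of these groups in the first and 4, 3, 1 and 3 in the second, and since the labels do not say which retinas came from the same mouse, p-values measure the spread between these retinas only.

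The phagocyte oxidase passes electrons from NADPH across a membrane to oxygen and so makes superoxide, which innate immune cells use against microbes. Its membrane core is silent until cytosolic subunits and a Rac GTPase bind to it, and in microglia it is a known source of oxidants after stimulation with LPS. Superoxide dismutases turn superoxide into hydrogen peroxide, peroxiredoxins and the thioredoxin system remove the peroxide, and haem oxygenase degrades haem, which is itself an oxidant.

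The retinas had between 7510000 and 19700000 alignments. Genes detected, with 1 RPKM or more, numbered between 8137 and 11825 in 24 of the retinas. They were fewer in naïve retinas 3 (7088) and 4 (6552), 18 h retina 4 (6969) and 2-week retina 1 (6644). Several results are also given without these 4 retinas. The 8 microglial markers were detected in every group, with summed levels of 6461 to 14503 RPKM in naïve, 2244 to 8507 (4 h), 4126 to 8466 (18 h) and 7663 to 15334 RPKM (2 weeks), and 3 of 8 were down-regulated at 4 h and 4 of 8 at 18 h. The 10 neutrophil markers summed to 5.60 to 83.0 RPKM in naïve, 0.321 to 37.8 (4 h), 2.86 to 27.8 (18 h) and 7.32 to 66.6 RPKM (2 weeks), and the 8 monocyte markers to 0.130 to 28.5, 0.694 to 18.1, 0.228 to 50.9 and 1.98 to 28.4 RPKM. These sums hide genes that differ in direction. The naïve neutrophil sums were mostly Csf3r (5.60 to 83.0 RPKM), which reached 11.7 RPKM at 18 h. S100a8 and S100a9 were 0 in all 10 naïve retinas and reached 9.24 and 5.15 RPKM at 18 h, Camp 3.28 RPKM and Ly6g 0.189 RPKM. Among the monocyte markers, F13a1 reached 28.4 RPKM in naïve retinas and 4.29 RPKM at 18 h. At 18 h Ly6c2 reached 4.68, Plac8 27.5 and Fn1 17.0 RPKM, beside 0.0279, 2.86 and 0.737 RPKM in naïve retinas. All of these 18 h maxima came from 18 h retina 5, and the other 18 h retinas reached 1.57, 6.69 and 4.66 RPKM. Plac8 also reached 12.8 RPKM at 4 h and 26.6 RPKM at 2 weeks. The 7 lymphocyte markers summed to at most 0.907 RPKM in each naïve, 4 h and 2-week retina and to 6.59 to 324 RPKM in the 18 h retinas, mostly Nkg7 and Gzma, while Cd3e stayed at or under 0.297 RPKM. The part of these cells in the 18 h values was not tested. Marker sums of rod photoreceptors ranged from 155 to 3935 RPKM, those of Müller glia from 41.7 to 179 RPKM, those of endothelium from 0.119 to 4.10 RPKM and those of erythrocytes from 0 to 735 RPKM, the highest in 4 h retina 5.

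The sequences upstream of a RefSeq start of 4 genes are shown, chosen by their levels. Txnrd1 and Prdx1 rose at different times, while Cybb and Ncf1, partners in the same complex, had log2 fold changes of opposite sign at 18 h. That of Ncf1 did not pass (-1.04, adjusted p = 0.12 from limma), and a link of motifs to these changes was not tested. Each sequence is the longest stretch outside the GENCODE exons of its gene in a RefSeq start-site window (GRCm38.p6), 5′ to 3′ on the gene's strand. RefSeq windows were at hand for 6 of the 9 genes. The printed windows of Cybb and Txnrd1 lie inside the GENCODE spans of these genes, which are given below, and so belong to internal starts. Capitals mark TGACNNNGC (the core of the antioxidant response element, ARE), TGANTCA (AP-1) and GAAANNGAAA (an interferon response element), searched on both strands.
Txnrd1, chr10:82858956-82859178, plus strand: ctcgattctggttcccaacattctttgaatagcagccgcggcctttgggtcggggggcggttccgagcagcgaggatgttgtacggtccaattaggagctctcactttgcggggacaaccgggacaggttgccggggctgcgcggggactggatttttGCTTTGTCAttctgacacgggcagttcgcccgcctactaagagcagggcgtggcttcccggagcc
Prdx1, chr4:116685349-116685543, plus strand: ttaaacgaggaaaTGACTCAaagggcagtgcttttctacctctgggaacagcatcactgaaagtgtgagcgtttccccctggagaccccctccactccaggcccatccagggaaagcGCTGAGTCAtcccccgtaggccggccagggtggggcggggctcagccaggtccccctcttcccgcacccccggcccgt
Cybb, chrX:9469325-9469574, minus strand: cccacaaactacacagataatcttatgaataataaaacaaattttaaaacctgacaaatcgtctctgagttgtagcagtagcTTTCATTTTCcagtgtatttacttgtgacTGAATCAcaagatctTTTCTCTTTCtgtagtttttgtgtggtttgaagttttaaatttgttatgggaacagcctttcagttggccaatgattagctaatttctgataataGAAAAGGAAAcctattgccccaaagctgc
Ncf1, chr5:134229626-134229875, minus strand: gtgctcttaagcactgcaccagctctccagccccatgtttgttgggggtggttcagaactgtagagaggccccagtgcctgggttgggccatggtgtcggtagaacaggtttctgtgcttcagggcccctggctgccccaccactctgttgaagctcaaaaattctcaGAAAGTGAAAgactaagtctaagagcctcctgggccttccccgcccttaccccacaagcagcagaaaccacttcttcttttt
The Txnrd1 window held 1 ARE core, and the windows at the other 2 RefSeq starts of Txnrd1 held none of the marked motifs. Prdx1 held 1 ARE core and 2 AP-1 motifs, 1 of which overlaps the ARE core. Cybb held 3 interferon motifs and 1 AP-1 motif, and Ncf1 held 1 interferon motif. The windows of Cyba and Sod2 held none of these 3 motifs. Among 32851 RefSeq windows of 250 bases, 10.2% held an ARE core, 6.75% an AP-1 motif and 2.98% an interferon motif. The kappa B pattern GGGNNNNNCC, not marked, occurred in all the windows printed and in 45.8% of all windows. These are matches of letters, and binding of a factor was not measured.

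At 4 h, 4 of the 9 genes were differentially expressed genes (DEGs), defined by a 2-fold or larger change and an adjusted p no higher than 0.05, and all 4 were up-regulated: Cybb, Ncf4, Sod2 and Txnrd1. Of all genes tested, 8.08% were DEGs at 4 h. At 18 h, 4 of 9 were up-regulated, Cybb, Sod2, Hmox1 and Prdx1, against a background of 4.69% of all genes. At 2 weeks, limma called 0 of 9, with 0 of 9 at an unadjusted p under 0.05, where 0.00760% of all genes were called and 2.87% had such an unadjusted p. All fold changes are log2 differences from limma on the log2(RPKM + 1) scale with Benjamini-Hochberg adjustment over the 13164 genes, and where values are low this scale gives too small a change. Because the retinas are bulk samples, fewer cells of a type and less RNA per cell cannot be told apart. Over the 9 genes, the log2 fold change had a median of 1.00 at 4 h, 1.47 at 18 h and 0.23 at 2 weeks, beside -0.11, -0.08 and 0.07 over all genes tested. The 9 genes were chosen with earlier results of these data known. The counts and medians therefore describe these genes and do not test the set against all genes.

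**Figure D1:**
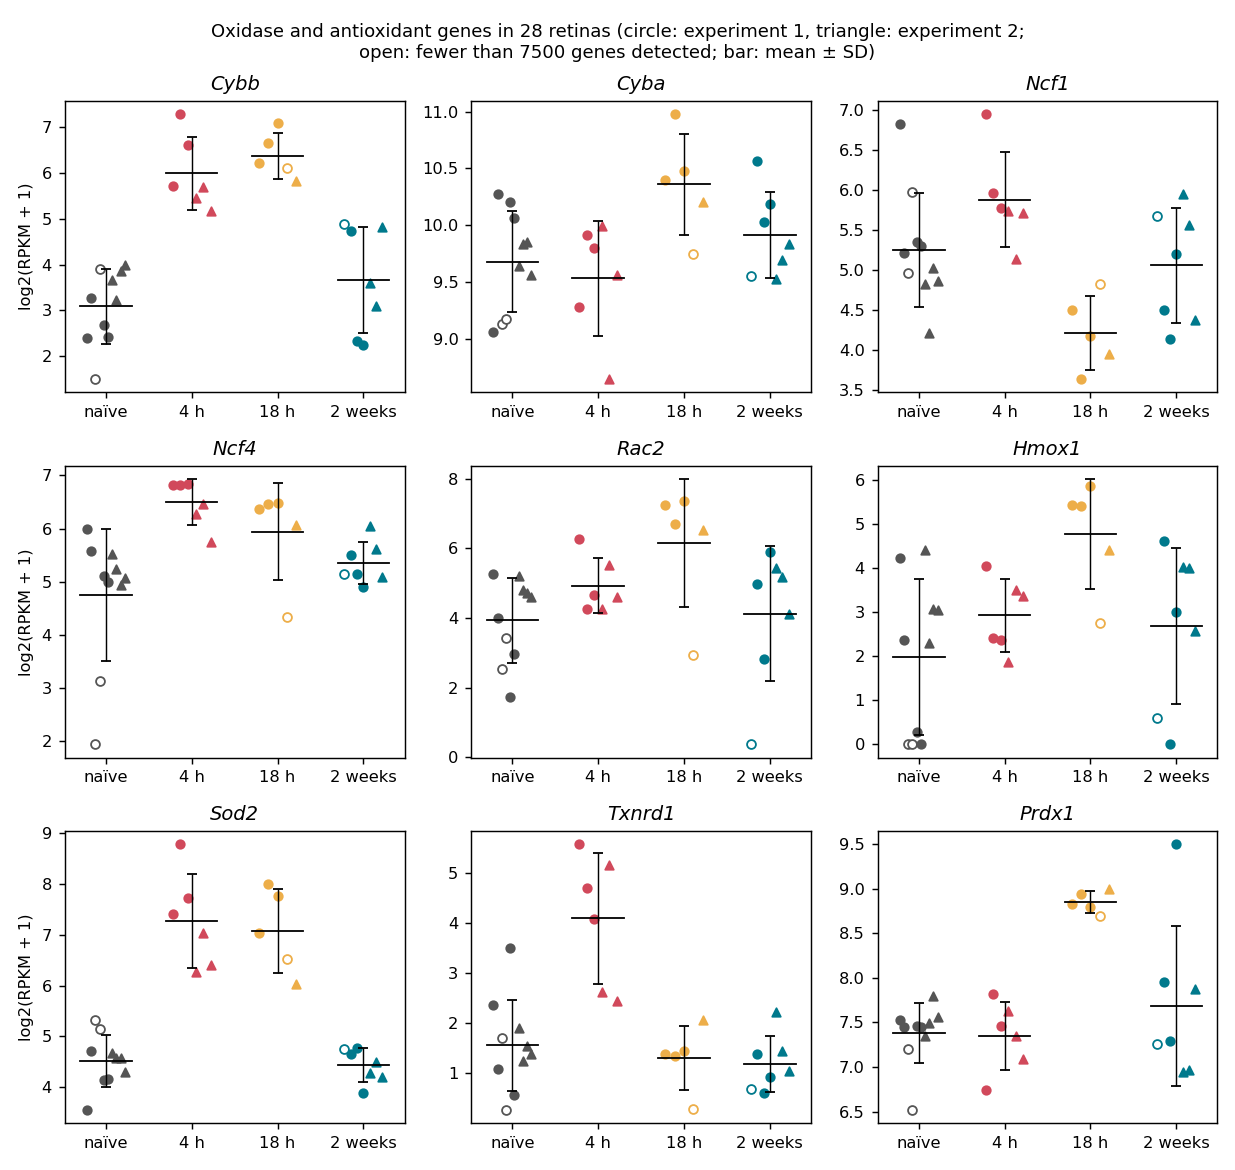
Level of each gene on the log2(RPKM + 1) axis in each of the 28 retinas by group, with the mean ± SD, circles for experiment 1, triangles for experiment 2 and open symbols for the 4 retinas with fewer than 7500 genes detected. All retinas at 4 h and 18 h lie above the naïve retinas for Cybb and Sod2, all at 18 h for Prdx1, while for Txnrd1 the 18 h retinas lie below those at 4 h.

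Cybb encodes gp91phox (NOX2), the catalytic membrane subunit that carries the electrons, and lies on chromosome X (9435252 to 9487771, minus strand, GRCm38). Naïve retinas ranged from 1.82 to 14.9 RPKM, with a median of 8.46. At 4 h Cybb ranged from 35.0 to 155 RPKM with a median of 51.3. No retina at 4 h overlapped with naïve retinas, the highest being 4 h retinas 2 (155 RPKM) and 3 (97.4 RPKM). These also had the lowest microglial marker sums of the group (2244 and 3467 RPKM), and the part of that in the Cybb values was not tested. The mean rose from 8.69 ± 4.67 RPKM (SD, n = 10) to 72.2 ± 46.1 RPKM (n = 6), a log2 fold change of 2.90 ± 0.45 (SE, adjusted p = 2.5e-05 from limma). The 18 h retinas stood at 73.9, 99.7, 135, 67.7 and 55.4 RPKM, again all above naïve, with a log2 fold change of 3.29 ± 0.47 (adjusted p = 2.6e-05 from limma). At 2 weeks Cybb ranged from 3.76 to 28.7 RPKM with a median of 11.0, and 3 of 7 retinas were above all naïve retinas. That group did not pass against naïve (0.58 ± 0.43, adjusted p = 1 from limma) and was lower than at 18 h by a log2 difference of -2.71 ± 0.51 (adjusted p = 0.0012 from limma), with no overlap between the groups. Of all genes, 2.65% were DEGs in the comparison of 2 weeks with 18 h, and 4.16% did not overlap.

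Cybb values at 4 h were higher in experiment 1 than in experiment 2, without a difference in response that passed. The 3 retinas of experiment 1 lay between 51.9 and 155 RPKM and the 3 of experiment 2 between 35.0 and 50.7 RPKM, while naïve retinas of experiment 1 averaged 6.42 RPKM and those of experiment 2 12.1 RPKM. The log2 fold change was 3.85 with experiment 1 alone (adjusted p = 0.0012 from limma) and 1.76 with experiment 2 alone (adjusted p = 0.0082). The interaction of 4 h and experiment was -2.09 ± 0.85 (unadjusted p = 0.021, adjusted p = 0.86 from limma), so that the difference did not pass. Of all genes, 0.0988% passed for this interaction, and limma called 0 of the 9, with 2 of 9 (Cybb and Sod2) at an unadjusted p under 0.05, beside 4.71% of all genes. Weights estimated for each library brought Cybb past the threshold, but the estimation of these weights stopped before it converged.

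Cyba encodes p22phox, the membrane partner that stabilises gp91phox, and lies on chromosome 8 (122424776 to 122432930, minus strand). It had the highest level of the 9 genes, from 532 to 1236 RPKM (median 854) in naïve retinas and from 399 to 1017 RPKM (median 821) at 4 h. The ranges overlapped widely, and the log2 fold change was -0.15 ± 0.25 (adjusted p = 0.80 from limma), and 0.01 with experiment 1 alone. At 18 h the retinas stood at 1348, 2018, 1421, 859 and 1177 RPKM, of which 3 of 5 were above all naïve retinas. The mean of 1365 ± 425 RPKM (SD, n = 5) against 853 ± 255 RPKM (n = 10) gave 0.68 ± 0.26, which did not pass (adjusted p = 0.14 from limma). At 2 weeks Cyba ranged from 737 to 1515 RPKM with a median of 912 (0.23 ± 0.23, adjusted p = 1). Cyba overlaps Gm20388, which did not exceed 3.59 RPKM in any retina, on the opposite strand.

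The membrane partners stood in other proportions after the injection of LPS. The ratio of Cyba to Cybb within a retina had a median of 117 (40.8 to 308) in naïve retinas, 10.6 (6.19 to 23.6) at 4 h, 18.2 (10.5 to 21.2) at 18 h and 66.8 (26.1 to 311) at 2 weeks. The ratios at 4 h and 18 h were all below those of the naïve and 2-week retinas, and these ratios are a description without a test.

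**Figure D2:**
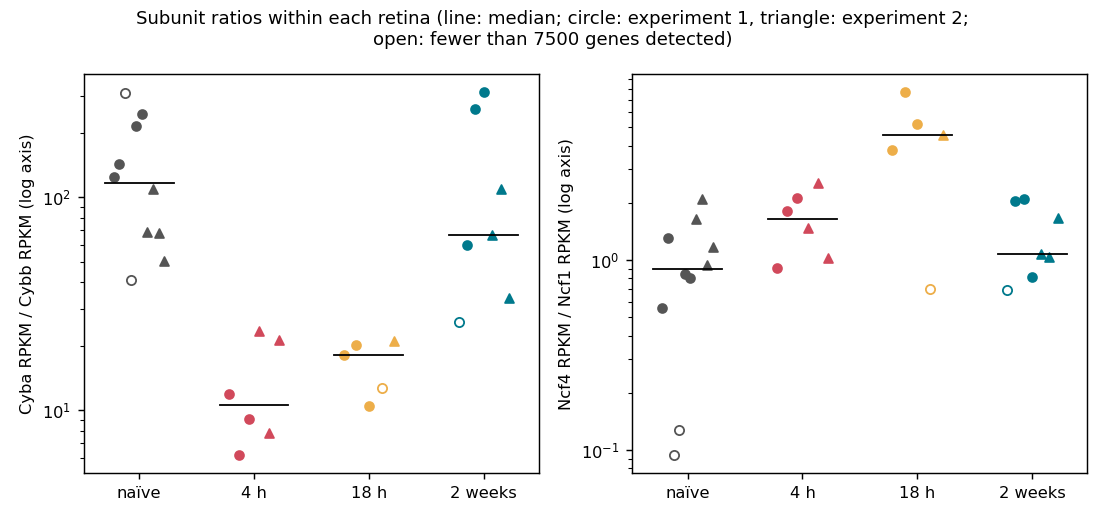
Ratio of Cyba to Cybb RPKM (left) and of Ncf4 to Ncf1 RPKM (right) within each retina, on log axes, with the median of each group as a line and symbols for experiment and detection as in the plot of levels. The Cyba to Cybb medians are 117, 10.6, 18.2 and 66.8 for naïve, 4 h, 18 h and 2 weeks, and the Ncf4 to Ncf1 medians are 0.897, 1.65, 4.56 and 1.08.

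Ncf1 encodes p47phox, the cytosolic organiser that is phosphorylated and brings the other cytosolic subunits to the membrane, on chromosome 5 (134220053 to 134229625, minus strand). Naïve retinas ranged from 17.5 to 112 RPKM (median 33.6) and 4 h retinas from 34.2 to 122 RPKM (median 52.8). The groups overlapped, with 1 of 6 retinas at 4 h above all naïve retinas, and the log2 fold change of 0.63 ± 0.36 did not pass (adjusted p = 0.33 from limma). At 18 h the values were 21.5, 11.4, 17.0, 27.2 and 14.4 RPKM, and 3 of 5 were below all naïve retinas. Against naïve the log2 fold change was -1.04 ± 0.38, which did not pass (adjusted p = 0.12 from limma). Against 4 h, however, all 18 h retinas were lower without overlap, and Ncf1 was a down-regulated DEG, from 62.5 ± 30.6 RPKM (SD, n = 6) to 18.3 ± 6.20 RPKM (n = 5), a log2 fold change of -1.67 ± 0.42 (adjusted p = 0.013 from limma). In this direct comparison 3 of the 9 genes were DEGs and did not overlap, Ncf1, Txnrd1 and Prdx1, beside 5.42% of all genes that were DEGs and 7.63% that did not overlap. The call was lost without 18 h retina 2 (-1.52, adjusted p = 0.051), with untransformed RPKM (-1.77, adjusted p = 0.052) and in experiment 1 by itself (-1.95, adjusted p = 0.10). At 2 weeks Ncf1 ranged from 16.6 to 60.6 RPKM with a median of 35.6 (-0.20 ± 0.34 against naïve, adjusted p = 1 from limma). Gtf2ird2, which overlaps Ncf1 on the opposite strand, reached at most 8.78 RPKM.

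Ncf4 encodes p40phox, a cytosolic subunit that binds phosphatidylinositol 3-phosphate, on chromosome 15 (78244801 to 78262580, plus strand). It ranged from 2.85 to 62.6 RPKM (median 33.2) in naïve retinas, the lowest being naïve retinas 3 (2.85) and 4 (7.84), and from 52.6 to 113 RPKM (median 99.4) at 4 h. At 4 h 5 of 6 retinas were above all naïve retinas, and the 3 of experiment 1 lay close together between 112 and 113 RPKM. Ncf4 was up-regulated from 32.9 ± 17.6 RPKM (SD, n = 10) to 92.2 ± 24.7 RPKM (n = 6), a log2 fold change of 1.74 ± 0.45 (adjusted p = 0.010 from limma). Without the 4 retinas with few detected genes it was 1.19 (adjusted p = 0.00073). Within the experiments it did not pass as a DEG, at 2.36 in experiment 1 (adjusted p = 0.093) and 0.97 in experiment 2 (adjusted p = 0.030, under a 2-fold change). The 18 h retinas stood at 81.4, 86.9, 88.2, 19.2 and 65.6 RPKM, and all but 18 h retina 4 were above all naïve retinas. The log2 fold change of 1.18 ± 0.48 did not pass (adjusted p = 0.17 from limma) and did so without the 4 retinas with few detected genes (1.03, adjusted p = 0.015). At 2 weeks Ncf4 ranged from 29.1 to 65.4 RPKM with a median of 34.6 (0.60 ± 0.43, adjusted p = 1). The log2 difference between 18 h and 4 h was -0.55 ± 0.53 and did not pass (adjusted p = 0.69 from limma).

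The proportion of the cytosolic partners Ncf4 and Ncf1 stood furthest from naïve at 18 h. Their ratio had a median of 0.897 (0.0942 to 2.11) in naïve retinas, 1.65 (0.913 to 2.55) at 4 h, 4.56 (0.706 to 7.63) at 18 h and 1.08 (0.692 to 2.09) at 2 weeks. At 18 h every retina but 18 h retina 4 exceeded all retinas of the other groups. This is again a description without a test.

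Rac2 encodes the GTPase of blood cells that completes the active oxidase, on chromosome 15 (78559167 to 78572783, minus strand). It ranged from 2.31 to 37.3 RPKM (median 19.2) in naïve retinas and from 18.1 to 75.2 RPKM (median 23.7) at 4 h, with 2 of 6 above all naïve retinas (1.00 ± 0.70, adjusted p = 0.46 from limma). The value at 4 h was 1.74 in experiment 1 and -0.04 in experiment 2. The 18 h retinas stood at 150, 102, 163, 6.61 and 90.4 RPKM. Of these, 4 lay well above all naïve retinas and 18 h retina 4 lay within the naïve range. Over all 5 retinas the log2 fold change was 2.22 ± 0.75 and did not pass (adjusted p = 0.085 from limma), although it passed with experiment as a covariate (2.41, adjusted p = 0.041), with a pseudocount of 10 (1.75, 0.018), with untransformed RPKM (2.45, 0.0014), with array weights (2.34, 6.2e-06) and with the number of detected genes as a covariate (2.54, 0.00035). Without 18 h retina 4 it was 3.02 (adjusted p = 0.0094), without all 4 retinas with few detected genes 2.79 (adjusted p = 0.0024), and without 2-week retina 1, which enters only the estimate of the spread, 2.22 (adjusted p = 0.032). In 18 h retina 4 the lymphocyte markers were at their highest sum, 324 RPKM, the microglial markers at the lowest sum of the 18 h group, 4126 RPKM, and 6969 genes were detected. The part of these in the low Rac2 value was not tested. At 2 weeks Rac2 ranged from 0.293 to 58.8 RPKM with a median of 30.4, the lowest value being that of 2-week retina 1 (0.19 ± 0.67 against naïve, adjusted p = 1). The difference between 2 weeks and 18 h was -2.03 ± 0.80 (adjusted p = 0.20 from limma), and -2.83 (adjusted p = 0.039) without 18 h retina 4. The difference between 18 h and 4 h was 1.22 ± 0.82 and did not pass (adjusted p = 0.52 from limma). Without all 4 retinas with few detected genes both passed, at -2.21 (adjusted p = 0.032) and 2.02 (adjusted p = 0.030).

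**Figure D3:**
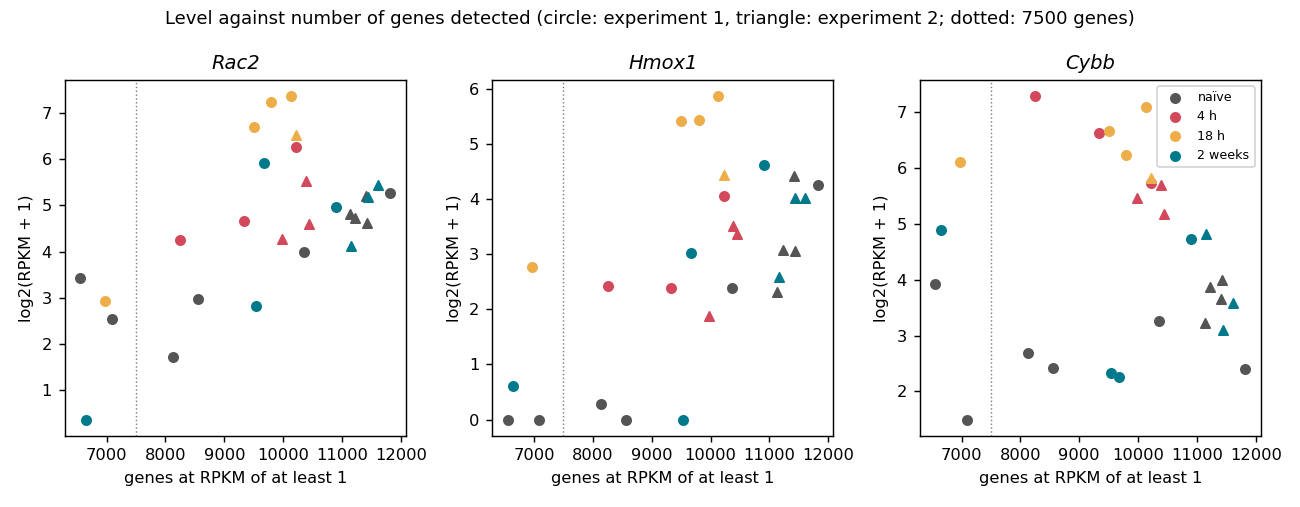
Level of Rac2, Hmox1 and Cybb on the log2(RPKM + 1) axis against the number of genes at an RPKM of at least 1 in each of the 28 retinas, coloured by group, with circles for experiment 1, triangles for experiment 2 and a dotted line at 7500 genes. The 4 retinas left of the line, with 6552 to 7088 genes, are among the lower values of their groups for Hmox1, whereas 18 h retina 4 stays at 67.7 RPKM for Cybb, above all naïve retinas.

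Sod2 encodes the manganese superoxide dismutase of mitochondria, on chromosome 17 (13006846 to 13040063, plus strand). Naïve retinas ranged from 10.7 to 39.1 RPKM with a median of 22.8. At 4 h Sod2 ranged from 76.0 to 439 RPKM (median 150), and at 18 h it stood at 131, 256, 217, 90.5 and 64.6 RPKM. All retinas at both time points lay above all naïve retinas, and the lower values came from experiment 2 and from 18 h retina 4. Sod2 was up-regulated from 23.1 ± 8.48 RPKM (SD, n = 10) to 185 ± 135 RPKM (n = 6) at 4 h, a log2 fold change of 2.76 ± 0.35 (adjusted p = 9.9e-07 from limma). At 18 h it averaged 152 ± 82.0 RPKM (n = 5), a log2 fold change of 2.56 ± 0.37 (adjusted p = 2.9e-05 from limma). Together with Cybb, Sod2 made 2 of 9 genes without overlap at 4 h, where 3.07% of all genes did not overlap with naïve, and with Cybb and Prdx1 it made 3 of 9 at 18 h, where 3.35% did not. The rise at 4 h was 3.47 in experiment 1 (adjusted p = 0.00021) and 2.05 in experiment 2 (adjusted p = 0.00017), and the interaction of -1.42 ± 0.62 did not pass (unadjusted p = 0.031, adjusted p = 0.95 from limma). At 2 weeks Sod2 lay between 13.8 and 26.4 RPKM (median 21.6), within the naïve range in all 7 retinas. It was lower than at 18 h by a log2 difference of -2.64 ± 0.40 (adjusted p = 7.4e-05 from limma, lost with untransformed RPKM at -2.85 and 0.07) and did not pass against naïve (-0.08 ± 0.34, adjusted p = 1).

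Txnrd1 encodes cytosolic thioredoxin reductase, a selenoprotein that uses NADPH to reduce thioredoxin, on chromosome 10 (82833951 to 82897712, plus strand). It was low in naïve retinas, from 0.206 to 10.3 RPKM (median 1.77), with naïve retina 5 highest. At 4 h it ranged from 4.42 to 46.5 RPKM (median 20.4), and 4 of 6 retinas were above all naïve retinas. Txnrd1 was up-regulated from 2.61 ± 2.92 RPKM (SD, n = 10) to 21.9 ± 16.7 RPKM (n = 6), a log2 fold change of 2.54 ± 0.46 (adjusted p = 0.00028 from limma), which was 3.20 in experiment 1 (adjusted p = 0.006) and 1.89 in experiment 2 (adjusted p = 0.043). The 18 h retinas stood at 1.62, 1.54, 1.71, 0.224 and 3.19 RPKM, all below all 4 h retinas and within the naïve range. The log2 difference between 18 h and 4 h was -2.79 ± 0.54 (adjusted p = 0.0011 from limma), and 18 h did not pass against naïve (-0.25 ± 0.49, adjusted p = 0.85). At 2 weeks Txnrd1 ranged from 0.518 to 3.66 RPKM with a median of 1.06 (-0.37 ± 0.44, adjusted p = 1). The overlapping genes Eid3, on the same strand, and Gm38560 and Gm47073, on the opposite one, reached at most 2.39, 2.33 and 2.28 RPKM, and Eid3 averaged 0.839 RPKM at 4 h against 0.167 RPKM in naïve retinas.

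Prdx1 encodes peroxiredoxin 1, an abundant cytosolic enzyme that reduces peroxide with electrons from thioredoxin, on chromosome 4 (116685544 to 116700822, plus strand). It passed at 18 h and not at 4 h, whereas Txnrd1 passed at 4 h and not at 18 h. Naïve retinas ranged from 90.8 to 221 RPKM (median 174) and 4 h retinas from 106 to 224 RPKM (median 169), a log2 fold change of -0.03 ± 0.29 (adjusted p = 0.97 from limma) whose sign turned with the setting. At 18 h Prdx1 stood at 454, 490, 442, 414 and 511 RPKM, above every naïve and 4 h retina and including 18 h retina 4. The mean rose from 169 ± 33.5 RPKM (SD, n = 10) to 462 ± 38.7 RPKM (n = 5), a log2 fold change of 1.47 ± 0.31 (adjusted p = 0.0031 from limma). The difference from 4 h was 1.50 ± 0.34 (adjusted p = 0.0056 from limma). With experiment 1 alone, these were 1.55 (adjusted p = 0.068) and 1.48 (adjusted p = 0.20), and the difference from 4 h was also lost with quantile normalisation (1.07, adjusted p = 0.082). At 2 weeks Prdx1 ranged from 122 to 721 RPKM with a median of 156, the highest being 2-week retina 4 and the next 247 RPKM, and the group did not pass against naïve (0.30 ± 0.28, adjusted p = 1). Against 18 h it was a down-regulated DEG at -1.17 ± 0.33 (adjusted p = 0.049 from limma), and when each of the 28 retinas was left out in turn the call was kept 6 times. Those were the fits without naïve retina 1, 3 or 4, 4 h retina 1 or 2, or 2-week retina 4, where it was -1.47 (adjusted p = 0.0010), and in the others the adjusted p lay between 0.054 and 0.12. The call was also lost in 11 of 16 other alternatives, with log2 differences between -1.17 and -0.81, among them experiment (adjusted p = 0.052) or eye side (0.061) as a covariate, the replicate block (0.15), the groups alone (0.16), equal summed RPKM (0.14), quantile normalisation (0.29) and experiment 1 alone (0.71).

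Reads of Prdx1 can be shared with its processed pseudogenes Gm21399 and Gm7204, which match its transcript at 98.3% and 97.5% identity over 597 bases, and their values are uncertain. A further processed pseudogene, Gm15974 (90.9% identity over 538 bases), did not exceed 0.227 RPKM. Prdx1 held between 89.6% and 93.3% of the RPKM summed over these 3 loci and Gm15974 in every retina. The sum averaged 185 RPKM (naïve), 182 RPKM (4 h), 505 RPKM (18 h) and 274 RPKM (2 weeks), and at 18 h it lay between 449 and 553 RPKM, above the naïve maximum of 246 RPKM.

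Hmox1 encodes haem oxygenase 1, the inducible enzyme that degrades haem to biliverdin, iron and carbon monoxide, on chromosome 8 (75093621 to 75100589, plus strand). In naïve retinas it was listed at 0 in naïve retinas 3, 4 and 6 and reached 20.3 RPKM, with a median of 4.09. At 4 h it ranged from 2.69 to 15.6 RPKM (median 6.83), all within the naïve range, with a log2 fold change of 0.96 ± 0.73 (adjusted p = 0.51 from limma), or -0.30 in experiment 2 alone. The 18 h retinas stood at 42.2, 41.7, 57.4, 5.79 and 20.6 RPKM, and 4 of 5 were above all naïve retinas, 18 h retina 5 narrowly so. 18 h retina 4 lay within the naïve range, as it did for Rac2. Hmox1 was up-regulated at 18 h, from 6.14 ± 7.45 RPKM (SD, n = 10) to 33.5 ± 20.3 RPKM (n = 5), a log2 fold change of 2.80 ± 0.78 (adjusted p = 0.029 from limma). Without the 4 retinas with few detected genes it was 2.81 (adjusted p = 0.020). The call was lost without naïve retina 6 (adjusted p = 0.052) or without 18 h retina 1, 2, 3 or 5 (adjusted p = 0.093, 0.094, 0.11 and 0.054), with log2 fold changes between 2.53 and 2.89, and with experiment 1 alone (3.72, adjusted p = 0.057). At 2 weeks Hmox1 ranged from 0 to 23.6 RPKM with a median of 7.12 (0.72 ± 0.70 against naïve, adjusted p = 1). The log2 difference between 18 h and 4 h was 1.85 ± 0.86 and did not pass (adjusted p = 0.27 from limma). That between 2 weeks and 18 h, -2.09 ± 0.83, did not pass either (adjusted p = 0.21 from limma).

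**Figure D4:**
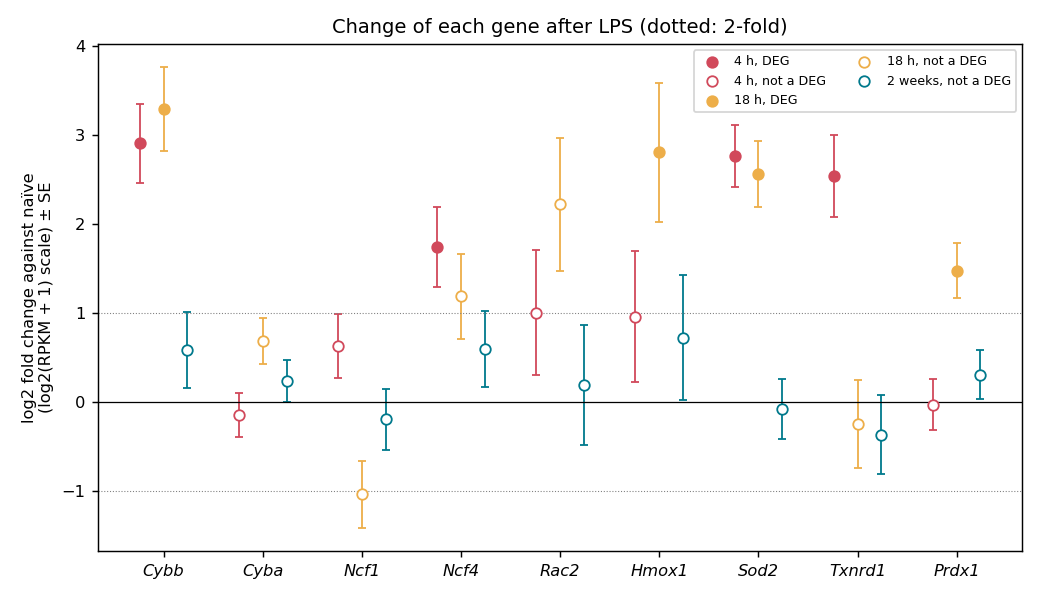
Log2 fold change of each gene against naïve retinas for the 4 h, 18 h and 2-week groups on the log2(RPKM + 1) scale, with the standard error as bars, filled symbols for DEGs and dotted lines at a 2-fold change. Cybb (2.90 and 3.29) and Sod2 (2.76 and 2.56) are DEGs at both early time points, Ncf4 (1.74) and Txnrd1 (2.54) at 4 h, and Hmox1 (2.80) and Prdx1 (1.47) at 18 h. In the direct comparison of 18 h with 4 h, not plotted, Ncf4 (-0.55) and Hmox1 (1.85) did not pass.

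Across the 28 retinas, pairs of the 9 genes differed in how far their levels moved together. The highest Pearson correlations of log2(RPKM + 1) were those of Rac2 with Hmox1 (0.87) and of Cybb with Sod2 (0.86), and Cyba with Ncf1 had -0.60. After the group means were removed these were 0.84, 0.44 and -0.39. The 28 points share groups, experiments and differences in detection, so these are descriptions. Among the other genes tested, those most like each member were Ch25h (0.89) and Cd72 (0.89) for Cybb, Cstb (0.80) and Commd10 (0.80) for Cyba, Stk40 (0.77) and Ube2h (0.76) for Ncf1, and Gm9762 (0.87) for Ncf4. They were Atp6v0c (0.89) and Gm3608 (0.89) for Rac2, Pmm2 (0.91) and Ap1s1 (0.90) for Hmox1, Car13 (0.94) and Il1rn (0.94) for Sod2, Rnd1 (0.91) and Malt1 (0.91) for Txnrd1, and the pseudogenes Gm21399 (0.97) and Gm7204 (0.93) for Prdx1. Ch25h, which encodes cholesterol 25-hydroxylase, ranged from 0 to 5.44 RPKM in naïve retinas, from 69.7 to 656 RPKM at 4 h, from 134 to 956 RPKM at 18 h and from 0 to 32.3 RPKM at 2 weeks. Il1rn, the interleukin-1 receptor antagonist gene, ranged from 0 to 1.22, from 6.47 to 338, from 8.78 to 83.7 and from 0 to 0.691 RPKM in the same order.

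The remaining oxidase subunits and relatives did not pass. Of 14 listed genes of the complex and related oxidases, 12 were in the table and 4 passed the filter. Of these, limma called 0 of 4 as DEGs at 4 h (1 of 4 at an unadjusted p under 0.05) and 0 of 4 at 18 h (0 of 4 unadjusted). Over all genes tested, 20.5% had such an unadjusted p at 4 h and 17.5% at 18 h. Rac1, the ubiquitous relative of Rac2, averaged 55.5 ± 18.0 RPKM in naïve retinas (SD, n = 10), 40.6 ± 17.3 RPKM at 4 h (n = 6) and 52.7 ± 15.7 RPKM at 18 h (n = 5), and its log2 fold change was -0.52 ± 0.30 at 4 h (adjusted p = 0.35 from limma) and -0.06 ± 0.32 at 18 h (adjusted p = 0.95). Within a retina, the ratio of Rac2 to Rac1 had medians of 0.364 (naïve), 0.930 (4 h), 1.92 (18 h) and 0.447 (2 weeks). Rap1a, the gene of a small GTPase found with the membrane core, was lower at 4 h in all 6 retinas (27.1 to 44.6 RPKM against 52.5 to 155 RPKM in naïve), but its log2 fold change of -0.95 ± 0.29 (adjusted p = 0.033) was under the 2-fold limit.

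Other genes of oxidant removal, glutathione, the NRF2 pathway and iron were taken from 4 further lists. Together with the oxidase list they held 78 genes, of which 76 were in the table and 64 passed the filter. Of these, 4 rose and 3 fell at 4 h, and 3 rose and 1 fell at 18 h, beside 8.08% and 4.69% of all genes. At 2 weeks limma called 0 of 64 (1 at an unadjusted p under 0.05, beside 2.87% of all genes). The median log2 fold change was 0.06 at 4 h and 0.10 at 18 h, beside -0.11 and -0.08 over all genes tested. Without the 4 retinas with few detected genes the counts of DEGs were 11 of 64 at 4 h and 8 of 64 at 18 h. In that fit the shares over all genes were also larger, 11.3% and 6.68%.

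Among the genes that remove superoxide and peroxide (17 tested, of which 1 fell at 4 h and 2 rose at 18 h), Prdx5, which encodes a peroxiredoxin of mitochondria and peroxisomes, averaged 108 ± 16.4 RPKM (SD, n = 10) in naïve retinas, 212 ± 27.8 RPKM at 4 h (n = 6) and 368 ± 130 RPKM at 18 h (n = 5). Its log2 fold change was 0.98 ± 0.24 at 4 h (adjusted p = 0.0066 from limma), just under the 2-fold limit (1.04 with the replicate block), and 1.69 ± 0.25 at 18 h (adjusted p = 5.0e-05), and all retinas of both groups were above all naïve retinas. Glrx, the gene of glutaredoxin, was up-regulated at 18 h, from 4.01 ± 3.00 to 55.1 ± 32.5 RPKM (3.47 ± 0.61, adjusted p = 0.00043), with 4 of 5 retinas above all naïve retinas. Txnip, the gene of an inhibitor of thioredoxin, was down-regulated at 4 h, from 42.7 ± 17.7 to 11.5 ± 7.40 RPKM (-2.0 ± 0.54, adjusted p = 0.014), which was lost without 4 h retina 2 (-1.43, adjusted p = 0.075), with experiment 1 alone (-2.66, adjusted p = 0.091), with no filter (adjusted p = 0.057) and with the replicate block (-1.89, adjusted p = 0.053). The log2 fold change of Txnip at 18 h was -1.36 ± 0.57 and did not pass (adjusted p = 0.19 from limma). Without the 4 retinas with few detected genes it passed (-1.88, adjusted p = 0.035).

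Of 18 glutathione genes tested, 1 rose and 1 fell at 4 h and 0 were called by limma at 18 h (2 at an unadjusted p under 0.05, beside 17.5% of all genes). Slc7a11, which encodes the cystine importer that feeds glutathione synthesis, did not exceed 0.932 RPKM in naïve retinas and lay between 8.12 and 38.0 RPKM at 4 h (3.84 ± 0.28, adjusted p = 1.2e-11 from limma). At 18 h it was back at or under 0.685 RPKM, a log2 difference from 4 h of -3.57 ± 0.33 (adjusted p = 5.3e-09), the same order of time points as Txnrd1. Gpx1, the gene of the main cytosolic glutathione peroxidase, fell at 4 h from 492 ± 153 RPKM (SD, n = 10) to 162 ± 64.6 RPKM (n = 6) in all 6 retinas (-1.62 ± 0.26, adjusted p = 5.0e-05) and stood at 640 ± 166 RPKM at 18 h (n = 5), above 4 h by 2.02 ± 0.31 (adjusted p = 4.1e-05).

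Of 15 genes of the NRF2 pathway and NADPH supply, 2 rose at 4 h and limma called 0 at 18 h (1 at an unadjusted p under 0.05, beside 17.5% of all genes). Maff, which encodes a small MAF protein, did not exceed 0.487 RPKM in naïve retinas and reached 16.6 RPKM at 4 h, where the lowest retina had 0.434 RPKM (2.40 ± 0.33, adjusted p = 4.1e-06 from limma), and with a pseudocount of 10 its change of 0.65 was under the 2-fold limit and with a filter of 5 RPKM it was not tested. Bach1, the gene of a repressor at NRF2 sites that haem inactivates, averaged 4.99 ± 3.30 RPKM in naïve retinas and rose to 20.8 ± 14.9 RPKM by 4 h (1.61 ± 0.42, adjusted p = 0.012), lost without 4 h retina 2 (1.34, adjusted p = 0.053), with experiment 2 alone (0.74, adjusted p = 0.25), with the replicate block (1.54, adjusted p = 0.055) and, under the 2-fold limit, with a pseudocount of 10 (0.91). At 18 h Bach1 stood at 1.89 ± 1.24 RPKM, lower than at 4 h by a log2 difference of -2.63 ± 0.50 (adjusted p = 0.00074).

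Of 10 haem and iron genes, 1 rose and 1 fell at each of 4 h and 18 h, the same genes, Fth1 and Slc40a1. Fth1, the ferritin heavy chain gene, ranged from 674 to 4783 RPKM in naïve retinas, from 5176 to 11798 RPKM at 4 h and from 6327 to 38419 RPKM at 18 h. Its log2 fold change was 2.06 ± 0.43 at 4 h (adjusted p = 0.0013 from limma) and 3.22 ± 0.45 at 18 h (adjusted p = 1.7e-05). The log2 difference between 18 h and 4 h was 1.16 ± 0.50 and did not pass (adjusted p = 0.21 from limma). Without the 4 retinas with few detected genes it passed (1.58, adjusted p = 0.0086). All retinas of both groups were above all naïve retinas, Fth1 has many processed pseudogenes that can share its reads, and the 4 h call was lost with quantile normalisation (1.08, adjusted p = 0.10) and with untransformed RPKM (1.82, adjusted p = 0.19). Slc40a1, the gene of the iron exporter ferroportin, averaged 7.79 ± 5.89 RPKM in naïve retinas (SD, n = 10) and fell to 1.22 ± 0.766 RPKM by 4 h (n = 6) and 0.458 ± 0.509 RPKM by 18 h (n = 5), with log2 fold changes of -1.81 ± 0.43 (adjusted p = 0.0048) and -2.40 ± 0.45 (adjusted p = 0.00097). With experiment 1 alone these were -2.04 (adjusted p = 0.13) and -2.35 (adjusted p = 0.059), with untransformed RPKM -2.68 (0.069) and -4.09 (0.056), and with a pseudocount of 10 they were under the 2-fold limit (-0.61 and -0.71).

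**Figure D5:**
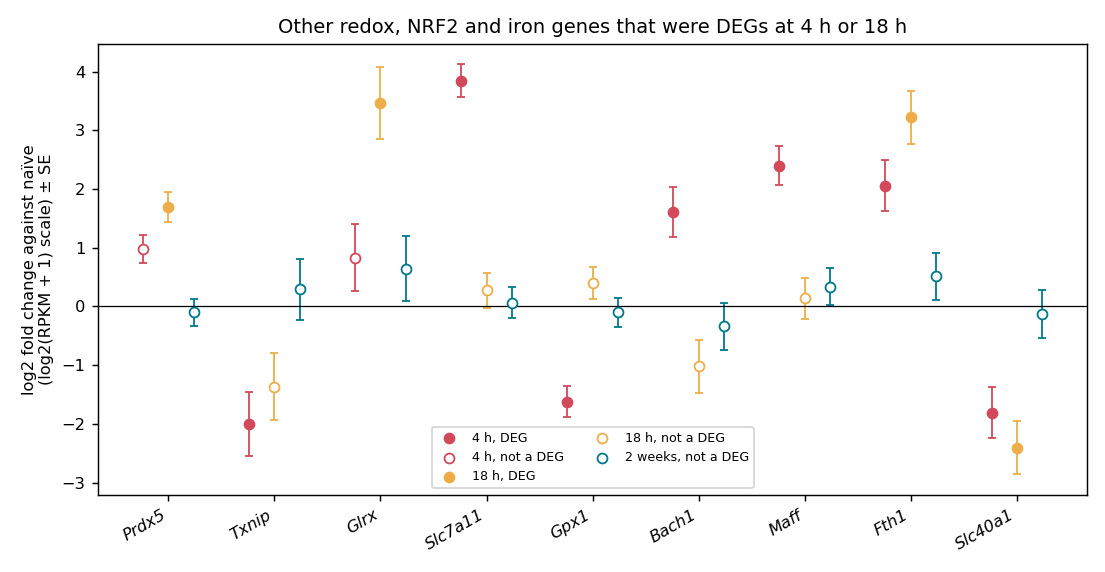
Log2 fold change against naïve retinas on the log2(RPKM + 1) scale, with the standard error as bars, of the other listed genes that were DEGs at 4 h or 18 h, filled where the gene was a DEG. Slc7a11 (3.84), Maff (2.40), Bach1 (1.61), Gpx1 (-1.62) and Txnip (-2.0) are filled at 4 h, Glrx (3.47) and Prdx5 (1.69) at 18 h, and Fth1 (2.06 and 3.22) and Slc40a1 (-1.81 and -2.40) at both.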

How the data were processed

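RNA of microglia sorted from single retinas was converted to cDNA with SMART-Seq and sequenced from Nextera libraries, which do not mark strand, so reads of overlapping or antisense genes cannot be told apart. The authors deposited 1 table of RPKM values per gene and retina. Per the submitters' processing notes and the study's methods, reads were converted with bcl2fastq 2.20, aligned to mm10 with STAR 2.5.3a and assigned to Ensembl transcripts by the expectation-maximisation step of Partek, which can divide reads between near-identical copies. RPKM corrects for length and total reads, not for composition, and read counts per gene were not used here, so counting error is unknown. Tables of the authors' own comparisons (ANOVA p-values, ratios and fold changes) were deposited too and were not used.

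The 28 retinas were grouped by their labels, each retina being 1 replicate. No 2 retinas shared more than 2 identical values above 0. Genes that reached an RPKM of 1 in 5 or more retinas were kept, values were taken as log2(RPKM + 1), and 1 limma model (version 3.58.1, R 4.3.3) with a mean-variance trend was fitted to all 4 groups. P-values were adjusted by Benjamini-Hochberg over all genes tested, and a DEG was a gene with a 2-fold or larger change and an adjusted p no higher than 0.05. An interaction of experiment with time was tested for 4 h and 2 weeks and not for 18 h, which has 1 retina in experiment 2. The code was checked on simulated data. The text names the 9 genes, listed pathway genes that were DEGs at 4 h or 18 h, and the 2 genes most correlated with each of the 9 over the retinas. Rac1 and Rap1a, overlapping genes and marker genes are named beyond that, and some items are not reported here. The genes and lists were chosen with earlier results of these data known. Alternatives changed the pseudocount, filter, scaling, weights, covariates, experiments and retinas used. Gene positions are from GENCODE M21 (GRCm38), upstream sequences from RefSeq (GRCm38.p6), near copies from blastn 2.17.0, and plots from matplotlib 3.10.9 (Python 3.11.15).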

Additional observations from a re-analysis of the deposited data

Results flagged for a closer look

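Of 36 groups of retinas checked, 4 groups of values for each of the 9 genes, 6 held a retina that stood apart from the rest of its group. Chance alone sets apart about 1 in 20 groups only if values are normally distributed. The values checked were untransformed RPKM, whose spread grows with level, the genes share the same retinas, and all 6 stood apart at the high end. The count of 6 therefore cannot be set against that rate. Ncf1 stood apart in naïve retina 1 (111.8 RPKM, next 61.8) and in 4 h retina 1 (122.2 RPKM, next 61.41), both from experiment 1. Sod2 stood apart in 4 h retina 2 (439.1 RPKM, next 211.7). Txnrd1 stood apart in naïve retina 5 (10.27 RPKM, next 4.128) and in 2-week retina 5 (3.66 RPKM, next 1.719). Prdx1 stood apart in 2-week retina 4 (721 RPKM, next 247.3), where its pseudogenes Gm21399 and Gm7204 were also at their highest values (36.6 and 29.7 RPKM).

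For 3 genes the change from naïve differed between 18 h and 4 h by limma's test of the difference. The 18 h change minus the 4 h change was -1.67 for Ncf1 (adjusted p = 0.013), -2.79 for Txnrd1 (adjusted p = 0.0011) and 1.50 for Prdx1 (adjusted p = 0.0056), each lower or higher in all 5 retinas at 18 h than in all 6 at 4 h.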

How the results depend on the processing

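Cybb, Sod2 and Txnrd1 at 4 h, Cybb and Sod2 at 18 h, Txnrd1 between 4 h and 18 h and Cybb between 18 h and 2 weeks kept direction and call under every alternative run. Leaving out each retina in turn gave 4 genes called at 4 h, 3 to 5 at 18 h, 0 at 2 weeks, 2 to 3 between 4 h and 18 h, 2 to 3 between 18 h and 2 weeks, and 0 for the difference between experiments. With experiment 1 alone, 2 genes were called at 18 h and 1 between 4 h and 18 h, in fewer retinas. Array weights gave 6 between 4 h and 18 h, 5 between 18 h and 2 weeks and 1 for the difference between experiments at 4 h, where the weights did not converge. The number of genes detected as a covariate, an alternative chosen after seeing the data as was leaving out the 4 retinas with few detected genes, gave 7 at 18 h and 5 between 18 h and 2 weeks, and the cause was not tested. Signs turned for values that were not called. These were Prdx1 at 4 h (0.0892 with the replicate block, 0.0713 with experiment 1, 0.0287 with quantile normalisation), Txnrd1 between 18 h and 2 weeks (0.0299 with the block, 0.0381 with equal summed RPKM), Cyba at 4 h (0.0144) and Cybb between 4 h and 18 h (-0.0266) with experiment 1, and Sod2 at 2 weeks (0.0107 with experiment 1, 0.0494 without the 4 retinas). With experiment 2 alone they were Rac2 (-0.0404) and Hmox1 (-0.298) at 4 h and, at 2 weeks, Cyba (-0.0364), Ncf1 (0.565), Txnrd1 (0.049) and Prdx1 (-0.291). With array weights they were Txnrd1 at 18 h (0.0327), Ncf1 (0.221) and Prdx1 (-0.0473) at 2 weeks, and Ncf4 (0.0499) and Sod2 (0.388) between 4 h and 18 h, and with the covariate Rac2 at 2 weeks (-0.074). Over single retinas left out, the ranges that crossed 0 were -0.239 to 0.0302 for Cyba and -0.128 to 0.0887 for Prdx1 at 4 h, -0.439 to 0.00481 for Txnrd1 at 18 h, -0.109 to 0.813 for Rac2 and -0.185 to 0.0137 for Sod2 at 2 weeks, -0.434 to 0.1 for Sod2 between 4 h and 18 h, and -0.375 to 0.0688 for Txnrd1 between 18 h and 2 weeks. Hmox1 at 18 h was also lost with a pseudocount of 0.1 (adjusted p = 0.082), no filter (0.11), the groups alone (0.055) and equal summed RPKM (0.062), all from limma. Equal summed RPKM shifted the median over all genes tested from -0.11 to -0.28 (4 h), from -0.08 to -0.26 (18 h) and from 0.16 to 0.33 (2 weeks minus 18 h), and with it Ncf1 at 18 h stood at -1.36 (adjusted p = 0.042). Over all genes, DEGs numbered 1063 at 4 h, 618 at 18 h, 714 between 4 h and 18 h and 349 between 18 h and 2 weeks. With experiment 1 alone these were 459, 232, 202 and 76, with array weights 1758, 1776, 2127 and 1496, and with the covariate 1624, 1434, 1287 and 899. A pseudocount of 10 gave 416, 338 and 458 in the first 3, and leaving out the 4 retinas gave 1241 and 532 in the last 2. The labels do not say whether the replicate numbers pair the retinas. Of 34 same-numbered couples 15 had a correlation of deviations over 0.1 (median 0.0352, highest 0.698), and 7 of 28 retinas were closest to their own number. The values to be found without pairing were not computed, so this check cannot decide whether retinas are paired. The replicate block gave 4, 5, 0, 3 and 2 genes called in the order above, with Ncf1 at 18 h among them (-1.40, adjusted p = 0.029). Depth per gene is unknown for RPKM.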
